A study of Homo sapiens with 26 samples.

Results

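The comparison described here set 1 ribosome profiling library of K562 cells treated with Ribo-Zero Plus against 2 undepleted K562 libraries of the same table. These 3 libraries, chosen by their titles, are 3 of the 26 libraries in the series. K562 is an established human erythroleukaemia cell line that makes embryonic and fetal globins. Ribosome profiling sequences the short mRNA fragments that ribosomes shield from nuclease, so that a count per coding sequence reads how many footprints a gene gave. Cells were lysed with cycloheximide, which holds ribosomes in place, monosomes were made with RNase I, and fragments of 20 to 34 nt were kept in all 3 libraries. The Ribo-Zero Plus library had neither the added oligos nor the formaldehyde that 3 smaller Ribo-Zero Plus libraries of the same table carried. The labels do not say whether the undepleted libraries, numbered 1 and 2, came from separate cultures, so the spread between them may be technical. The Ribo-Zero Plus library has no replicate. Differences are therefore given as sizes beside the difference between the undepleted pair, and no p-value was computed.

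Fragments of rRNA, cut by the same nuclease that makes the footprints, take up most of an undepleted profiling library. Ribo-Zero Plus removes them with DNA probes that pair with rRNA, RNase H, which cuts the RNA strand of a DNA-RNA hybrid, and a DNase that destroys the probes. Its probes cover cytosolic and mitochondrial rRNA and also globin mRNA. Counting footprints gene by gene beside libraries that met no probe shows which coding sequences gained or lost reads.

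Totals over coding sequences were 1135460 and 1031889 counts in undepleted 1 and 2 and 1840190 counts with Ribo-Zero Plus. The TMM scaling factors, which adjust for composition, lay between 0.990 and 1.009. Levels below are in CPM (counts scaled to a common library size) unless the text says that they are CPM of the library total. Of 19478 transcripts, 2595 had a mean of at least 100 counts over the 3 libraries and are called measured. Of 19 K562 and erythroid marker genes, 18 had counts in each library, with CD36 at 0, and their summed level was 15374, 15118 and 15144 CPM in undepleted 1, undepleted 2 and Ribo-Zero Plus. Markers of T cells, B cells, monocytes, liver, fibroblasts, epithelium and embryonic kidney lines summed to at most 85.2 CPM per list in any of the 3 libraries, and the liver genes ALB and APOA1 had no count.

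Most transcripts lay close to their undepleted level with Ribo-Zero Plus. The middle 90% of measured transcripts had log2 ratios, Ribo-Zero Plus over the mean of the undepleted libraries, between -0.39 and 0.42, with a median of 0.02. Between undepleted 1 and undepleted 2 the same range was -0.27 to 0.28. At least 1.5-fold higher levels were found for 44 transcripts, 1.7% of those measured, and at least 1.5-fold lower ones for 36, or 1.39%. The undepleted pair passed that fold for 5 transcripts in one direction (0.193%) and 3 in the other (0.116%). At least 2-fold differences were fewer, with 4 transcripts higher (0.154%) and 1 lower (0.0385%), against 0 and 0 in the pair. The rises depended on how transcripts were admitted, since the Ribo-Zero Plus library was the deepest of the 3 and could carry a transcript past the mean. With the minimum of 100 counts set on the undepleted libraries alone, 8 transcripts were at least 1.5-fold higher and 38 lower, and 0 were 2-fold higher and 3 lower. Every transcript named below as 2-fold higher left the table under that filter.

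**Figure D1:**
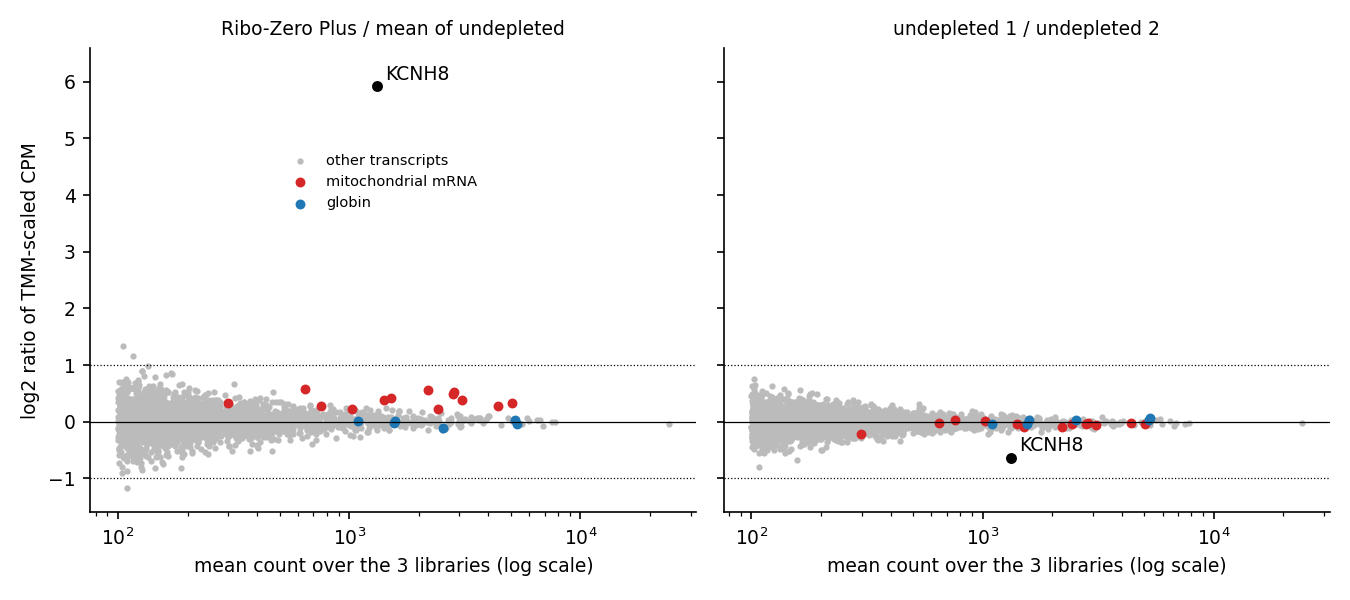
Log2 ratio of TMM-scaled CPM (vertical axis) against the mean count over the 3 libraries (horizontal axis, log scale), 1 point per measured transcript, for Ribo-Zero Plus over the undepleted mean (left) and for undepleted 1 over undepleted 2 (right). Dotted lines mark 2-fold. KCNH8 lies at 5.92 on the left, the 13 mitochondrial mRNAs lie between 0.23 and 0.59, and the globins lie near 0. 1 transcript lies above the vertical range and is not drawn.

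KCNH8 was the transcript that stood furthest from its undepleted levels among those described here. It encodes a voltage-gated potassium channel of the ELK group, known mainly from the nervous system. Undepleted 1 and 2 gave it 32 and 45 counts (27.9 and 43.5 CPM), and Ribo-Zero Plus gave it 3889 counts (2135 CPM), 60.5-fold more. The log2 ratio was 5.92 ± 0.18, where the error here and below is a standard error that takes counting error in the undepleted libraries and the wider scatter of the Ribo-Zero Plus library described further on. KCNH8 alone took 0.211% of all Ribo-Zero Plus counts, against 0.00282% and 0.00436% in the undepleted libraries. The undepleted libraries themselves differed by 0.63 on the log2 scale for this transcript.

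The same transcript was high in the other Ribo-Zero Plus libraries, at 16024 CPM of the library total with oligos, 13483 with formaldehyde and 13388 with both. The FastSelect libraries, made with another depletion kit, gave 350.0 and 385.0 CPM of the library total. The riboPools libraries, made with probes on beads, gave 106 and 71.5 when heated and 16.5 and 10.9 when eluted cold. Thus every Ribo-Zero Plus library lay above every other library of the table, FastSelect came next, and cold-eluted riboPools lay below the undepleted pair. The separate K562 table with the NEBNext kit, which also uses RNase H, gave 713 and 740 counts with NEBNext and 0 and 2 in the libraries titled undepleted, which also carry a label naming NEBNext. In HEK293T, a human embryonic kidney line, KCNH8 had 0 counts in all 4 libraries of the NEBNext comparison, which allows at most 3 counts in each.

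RIN2, which encodes a guanine nucleotide exchange factor for the small GTPase RAB5, was chosen after its values were seen and lies under the filter on counts. It had 1 and 1 counts in the undepleted libraries and 48 with Ribo-Zero Plus. Against a floor of 3 counts in each undepleted library this is at least 9.54-fold higher. It had 15 counts with oligos, 8 with formaldehyde and 28 with both, or 81.2, 68.5 and 169.5 CPM of the library total. The FastSelect and riboPools libraries ranged from 0 to 8 counts for it, and the NEBNext table gave 7 and 4 counts with the kit against 0 and 0 without. For RIN2, as for KCNH8, every Ribo-Zero Plus library lay above the rest of the table in CPM, with far fewer counts behind each value.

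**Figure D2:**
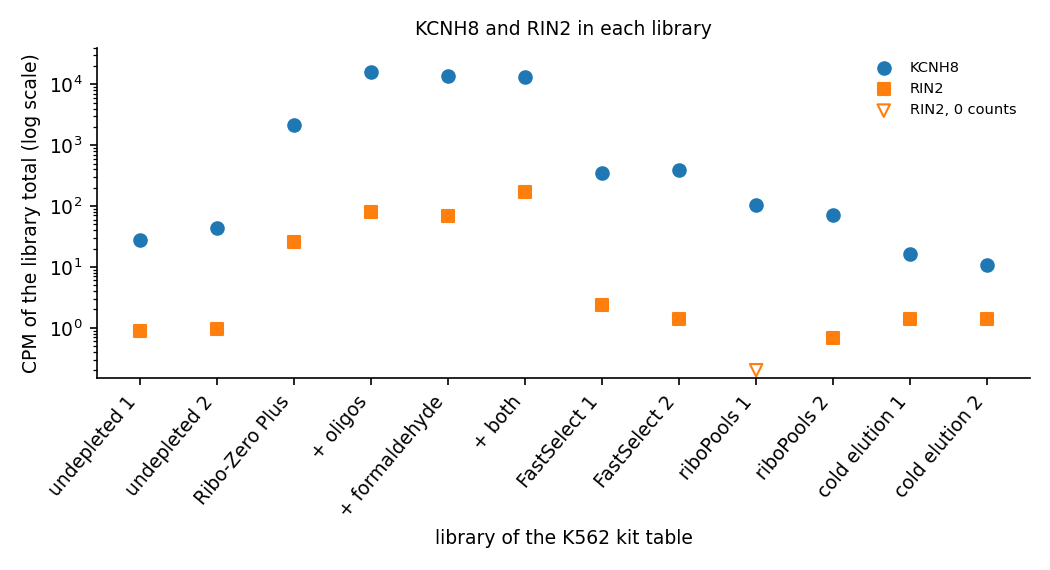
CPM of the library total (vertical axis, log scale) of KCNH8 (blue circles) and RIN2 (orange squares) in each of the 12 libraries of the K562 kit table (horizontal axis), 1 point per library. The open triangle marks a library with 0 counts of RIN2, drawn at the foot of the axis. The 4 Ribo-Zero Plus libraries lie above all others for both transcripts, and KCNH8 reaches 2113 CPM of the total in the plain one.

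Because the kit's probes pair with rRNA, each coding sequence was searched for its longest run of bases identical to 5S, 5.8S, mitochondrial 12S or mitochondrial 16S rRNA, read on the same strand. 18S and 28S rRNA were not used here. KCNH8 held a run of 14 bases of 12S rRNA. Among the 2506 measured transcripts with a coding sequence in the annotation, 33 (1.32%) held a run of 14 bases or more. The windows below are a selection and do not cover all transcripts with such runs. They show KCNH8 first, then BZW2, a regulator of translation start whose run begins 1 base further along the same stretch of 12S. After these come windows with equally long or longer runs. They are coding-strand sequence 5′ to 3′ from GENCODE release 29 on GRCh38, in lower case, with the run shared with rRNA in capitals.
KCNH8, 12S, chr3:19515334-19515367, plus strand, exon 14: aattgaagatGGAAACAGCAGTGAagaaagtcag
BZW2, 12S, chr7:16696951-16696984, plus strand, exon 9: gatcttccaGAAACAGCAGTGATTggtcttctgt
TOP2B, 12S, chr3:25636066-25636099, minus strand, exon 7: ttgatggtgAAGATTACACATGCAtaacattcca
BEX4, 16S, chrX:103216154-103216187, plus strand, exon 3: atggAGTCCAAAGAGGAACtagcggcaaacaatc
PELP1, 5.8S, chr17:4673070-4673103, minus strand, exon 16: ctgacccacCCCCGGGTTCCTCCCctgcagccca
EIF2S2, 16S, chr20:34103558-34105393, minus strand, across exons 2 and 3: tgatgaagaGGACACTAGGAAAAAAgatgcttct

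Transcripts with a long run shared with the rRNAs that were searched were mostly near their undepleted level. BZW2, with 15 bases that cover all but 1 base of the KCNH8 run, had a log2 ratio of 0.31. EIF2S2, a subunit of the initiation factor that brings the first tRNA, held 16 bases of 16S and had a log2 ratio of -0.00. TOP2B, a topoisomerase, had -0.05, BEX4 had 0.01 and PELP1, a nuclear receptor coregulator, had 0.46. Over the 33 transcripts the median log2 ratio was 0.09, against 0.02 over all measured, and without KCNH8 the range was -0.27 to 0.47. Across transcripts, which are not independent replicates, the length of the longest run had a Spearman rho of -0.04 with the log2 ratio. A shared run describes these letters only and is not a mapped cut or probe site. Runs shared with the rRNAs left out of the search were not tested, and neither were matches to the kit's probes.

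Other transcripts past 2-fold were covered by far fewer footprints. GTF2H4, a subunit of the general transcription and repair factor TFIIH (GRCh38 chromosome 6, transcript from 30908184 to 30914106), had 40.2 and 53.2 CPM undepleted and 117 CPM with Ribo-Zero Plus, a log2 ratio of 1.33 ± 0.30. In the other Ribo-Zero Plus libraries it had 103 CPM of the library total with oligos, 437 with formaldehyde and 575 with both, from 19, 51 and 95 counts. ABT1, a nuclear protein that activates basal transcription (chromosome 6, 26596952 to 26600744), had 60.3 and 50.3 CPM undepleted and 124 CPM with Ribo-Zero Plus, or 1.17 ± 0.28. Both were above the undepleted pair in all 4 Ribo-Zero Plus libraries, and only the plain one holds more than 100 counts of either. In the NEBNext table of K562 ABT1 lay the other way, with 29.5 and 40.1 CPM of the library total with the kit and 121 and 64.0 without. These values rest on 13 and 8 counts with the kit and 23 and 3 without.

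Next in size were WEE1, the kinase that holds CDK1 inactive, at 0.99 ± 0.27, and MMS19, part of the machinery that inserts iron-sulfur clusters, at 0.90 ± 0.28. Of the rises named here, FHOD1 and C14orf166 alone averaged 100 counts or more in the undepleted libraries, and the others left the table under the filter on those libraries. WEE1 had 71.6 and 67.7 CPM undepleted and 138 CPM with Ribo-Zero Plus. The readthrough transcript ATP5J2-PTCD1 followed at 0.90 ± 0.28. Its reads may belong to either parent gene, and it was also high in the other Ribo-Zero Plus libraries, at 168, 523 and 321 CPM of the library total with oligos, formaldehyde and both. The formin FHOD1 (0.86), C14orf166 (0.85), the corepressor subunit TBL1XR1 (0.83), the lysosomal membrane protein LAPTM4A (0.80) and the ubiquitin-conjugating enzyme CDC34 (0.78) closed the named rises. MMS19 had 0 counts with oligos, 10 with formaldehyde (85.7 CPM of the library total) and 24 with both (145). WEE1 was below the undepleted pair with oligos (32.5 CPM of the library total) and with formaldehyde (17.1) and above it with both (84.8), from 14 counts or fewer.

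SCAMP2, a carrier protein of secretory vesicles (chromosome 15, 74843730 to 74873365), was the only measured transcript at least 2-fold lower. It had 115 and 104 CPM undepleted and 48.3 CPM with Ribo-Zero Plus, a log2 ratio of -1.17 ± 0.41. The smaller Ribo-Zero Plus libraries had it at 130, 85.7 and 115 CPM of the library total with oligos, formaldehyde and both. These values lay near the undepleted level but rest on only 24, 10 and 19 counts. The other named falls lay between -0.90 and -0.70. They were SEPT6, a septin, SAMM50, which inserts barrel proteins in the outer mitochondrial membrane, the ribosome assembly factor NOP16, the glycosyltransferase GALNT5, TMEM50A, the vitamin transporter SLC5A6, the phosphatase methylesterase PPME1, PMPCB of the mitochondrial processing peptidase, SBDS, which helps release a factor from the large ribosomal subunit, the mitochondrial ribosome component MRPL58 and PTOV1. SEPT6, the largest of these, had 91.7 and 106 CPM undepleted and 52.7 CPM with Ribo-Zero Plus, at -0.90 ± 0.40. The named falls, SCAMP2 included, were picked by size among 2595 measured transcripts. Whether they exceed the scatter of this library was not tested. The 3 transcripts just inside 1.5-fold had log2 ratios of 0.59 on the high side and -0.59 on the low side, and the 3 just outside had 0.58 and -0.58 to -0.57. The 3 just outside 2-fold had 0.90 to 0.99 and -0.90 to -0.85.

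All 13 mRNAs encoded by the mitochondrial genome were higher with Ribo-Zero Plus than in either undepleted library. These transcripts encode core subunits of respiratory complexes I, III, IV and V and are translated by ribosomes inside the organelle. Among all measured transcripts, 43.4% lay above both undepleted libraries and 35.4% below both. The median mitochondrial log2 ratio was 0.38, or 1.30-fold, against 0.02 over all measured transcripts and -0.04 for the same 13 in the undepleted pair. Their summed share of the library was 2.42% with Ribo-Zero Plus and 1.87% and 1.91% without. Footprints per mRNA and the amount of mitochondrial mRNA cannot be told apart in these data. Whether either differed, or only the handling of the library, was not tested.

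The complex I subunits covered most of the range of the 13. MT-ND1 had 391 and 398 CPM undepleted and 592 CPM with Ribo-Zero Plus, a log2 ratio of 0.59 ± 0.13, and was the only one of the 13 past 1.5-fold. MT-ND4 followed at 0.50, then MT-ND2 at 0.39, MT-ND5 at 0.38, MT-ND6 at 0.34, MT-ND4L at 0.28 and MT-ND3 at 0.23. MT-ND6, the only one of the group encoded on the opposite strand, was the least covered, with 186 and 215 CPM undepleted and 253 CPM with Ribo-Zero Plus, so its error of 0.19 was the widest.

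MT-CYB, the complex III subunit, had 1317 and 1396 CPM undepleted and 2002 CPM with Ribo-Zero Plus, or 0.56 ± 0.07. Of the complex IV subunits, MT-CO2 had 1767 and 1792 CPM undepleted and 2572 CPM with Ribo-Zero Plus, or 0.53 ± 0.06. MT-CO1 had 3353 and 3448 CPM undepleted and 4259 CPM with Ribo-Zero Plus, or 0.32 ± 0.05, and MT-CO3 was close to it at 0.28 ± 0.05. Thus MT-CO2 stood apart from MT-CO1 and MT-CO3 by more than these errors. Of the ATP synthase subunits, MT-ATP8 had 0.42 ± 0.08 and MT-ATP6 had 0.23 ± 0.07. These last 2 reading frames overlap in the genome, as do MT-ND4L and MT-ND4, so reads of the overlap may be shared between them.

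**Figure D3:**
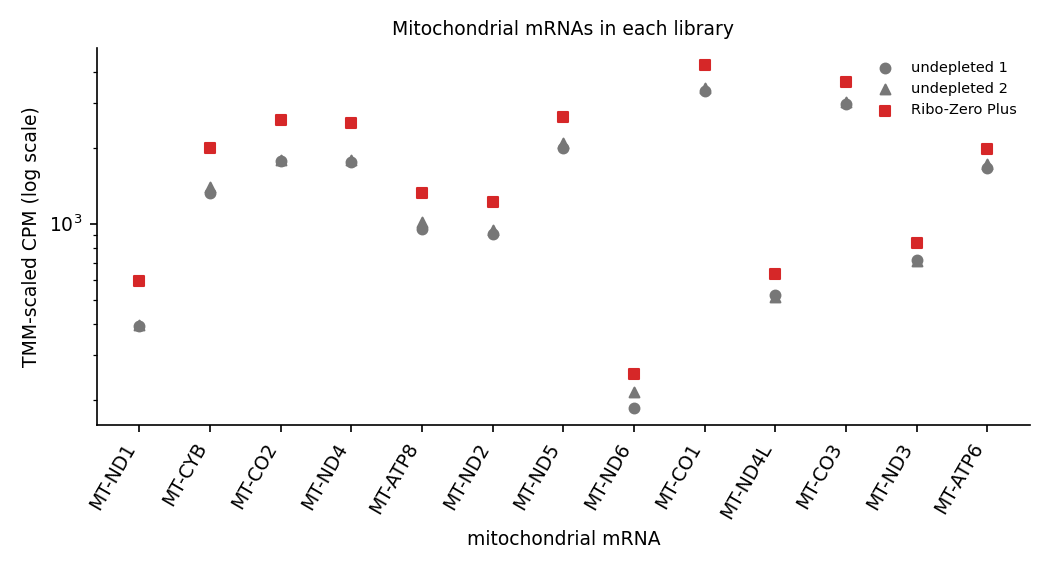
TMM-scaled CPM (vertical axis, log scale) of the 13 mitochondrial mRNAs (horizontal axis, ordered by log2 ratio) in undepleted 1 (grey circles), undepleted 2 (grey triangles) and Ribo-Zero Plus (red squares), 1 point per library. The red square lies above both grey points for every transcript, from 592 against 391 and 398 CPM for MT-ND1 on the left to MT-ATP6 on the right, with a log2 ratio of 0.23.

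The mitochondrial share also varied among the other libraries of the table. It was 2.45% with Ribo-Zero Plus and oligos, 3.95% with formaldehyde and 4.21% with both. It was 1.91% and 1.76% with FastSelect, 2.04% and 2.18% with heated riboPools and 2.28% and 2.22% with cold-eluted riboPools. These comparisons use the same undepleted pair. The NEBNext tables have undepleted libraries of their own, and the K562 log2 ratios there are averages over both fragment size ranges. There the 13 mRNAs had a median log2 ratio of 0.55 in K562, with 11 of 13 above 0, against 0.14 over all transcripts compared, and of 0.61 in HEK293T, with 12 of 13 above 0, against 0.02. Single values there ran from -1.03 to 1.78 in K562 and from -0.93 to 3.22 in HEK293T. Both HEK293T extremes rest on few counts. The highest, MT-ND3, had 4 and 19 counts with NEBNext and 1 and 0 undepleted. The lowest, MT-ND6, had 4 and 16 with NEBNext and 15 and 12 undepleted.

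Globin footprints were close to their undepleted levels, although the kit carries globin probes. Globin genes encode the chains of haemoglobin, and K562 cells make the embryonic and fetal ones. Of 10 globin transcripts, 6 were measured, with a median log2 ratio of -0.01, and 0 of 6 passed 1.5-fold. The fetal gamma globins HBG1 and HBG2 had log2 ratios of 0.03 ± 0.05 and -0.03 ± 0.05. HBG1 had 3914 and 3843 CPM undepleted and 3962 CPM with Ribo-Zero Plus. The alpha globins HBA1 and HBA2 had 0.01 ± 0.09 and -0.03 ± 0.09, and embryonic HBZ had 0.02 ± 0.10. Reads of HBG1 and HBG2, and of HBA1 and HBA2, can be split between near-identical copies.

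Embryonic HBE1 was the lowest, with 1997 and 1944 CPM undepleted and 1818 CPM with Ribo-Zero Plus, a log2 ratio of -0.12 ± 0.07. Globins together took 1.28% of the Ribo-Zero Plus counts and 1.34% and 1.30% of the undepleted counts. In the smaller Ribo-Zero Plus libraries the share was 1.06% with oligos, 0.650% with formaldehyde and 0.351% with both. The 4 globins under the filter had too few counts to place: HBD had 30, 35 and 39 counts in undepleted 1, undepleted 2 and Ribo-Zero Plus, HBQ1 had 28, 13 and 61, HBB had 7, 10 and 20, and HBM had none.

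Other gene groups centred near 0. The 47 large-subunit ribosomal protein transcripts had a median log2 ratio of -0.01 and a range of -0.16 (RPL17) to 0.25 (RPL22), and the 32 small-subunit ones had 0.02 and a range of -0.14 (RPS15A) to 0.20 (RPS29). None of either group was past 1.5-fold, and together they took 12.8% of counts with Ribo-Zero Plus and 12.8% and 12.9% without. Glycolytic enzymes (13 measured) ranged only from -0.09 for HK1 to 0.08 for PFKP. Replication-dependent histones (60 measured) had a median of 0.04, with HIST2H2AB highest at 0.34 and HIST3H2BB lowest at -0.19. Histone genes also share long identical stretches, so reads may move between them.

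Among protein-folding and turnover groups, proteasome subunits had a median of 0.01 with PSMB5 at 0.30 and PSMD13 at -0.36, and the CCT chaperonin had 0.01 with all 8 subunits between -0.05 and 0.16. Among cytosolic and mitochondrial chaperones TRAP1, the mitochondrial HSP90, was the lowest at -0.44 ± 0.19, with 341 and 341 CPM undepleted and 252 CPM with Ribo-Zero Plus. Of 10 ER chaperones measured, 7 lay below both undepleted libraries, where 35.4% of all measured transcripts did, and the median was -0.08.

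Nuclear-encoded respiratory chain transcripts did not show the mitochondrial shift. Of 72 measured, 40 lay above both undepleted libraries (43.4% of all measured transcripts did) and 24 below both (35.4% did), and the median was 0.08. ATP5J2-PTCD1 and the complex I subunit NDUFA1 were past 1.5-fold higher, and NDUFS8, a complex I iron-sulfur subunit, was past it on the low side at -0.63 ± 0.28, with 162 and 176 CPM undepleted and 109 CPM with Ribo-Zero Plus. Aminoacyl-tRNA synthetases had a median of 0.07, with 13 of 20 above both undepleted libraries, beside the same 43.4% over all measured. Of 38 initiation factors, with a median of 0.01, EIF2B5 alone passed 1.5-fold, at 0.60 ± 0.26. Another subunit of the same exchange factor, EIF2B4, was the lowest of the group at -0.38 ± 0.34.

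Small groups gave medians on few members. The 5 erythroid transcription factors measured had a median of -0.12, with LDB1, a bridging factor of the GATA1 complex, lowest at -0.53 ± 0.34 and NFE2 highest at 0.01. Of 6 iron-handling transcripts the median was 0.11, but -0.062 with the filter at a mean of 20 counts and also below 0 with no filter. Among them were the ferritin light chain FTL at 0.26 ± 0.28 and IREB2, an iron-responsive RNA-binding protein, at -0.30 ± 0.31. For FTL and IREB2 the error is as wide as the difference or wider. Of all list members described, those past 1.5-fold were MT-ND1, EIF2B5, ATP5J2-PTCD1 and NDUFA1 on the high side and NDUFS8 on the low side.

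**Figure D4:**
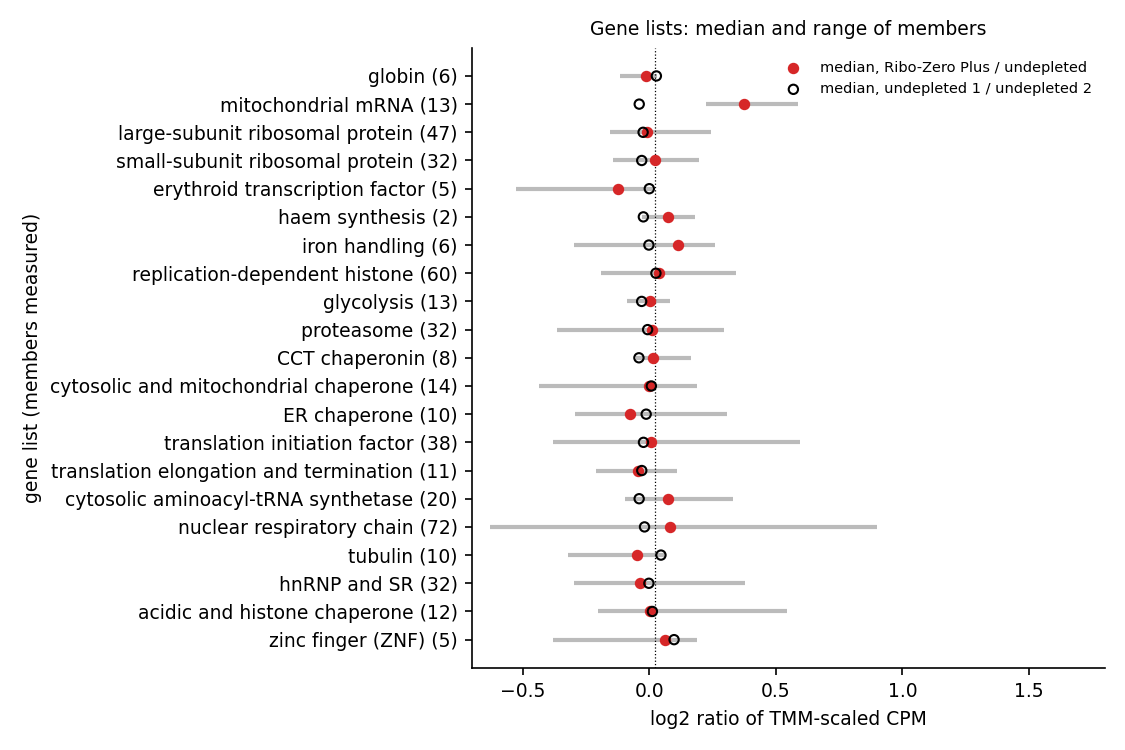
Median log2 ratio of TMM-scaled CPM (horizontal axis) for each gene list (vertical axis, with the number of members measured), for Ribo-Zero Plus over the undepleted mean (red) and undepleted 1 over undepleted 2 (open circles). Grey bars span the lowest to the highest member for Ribo-Zero Plus, and the dotted line marks the median of all measured transcripts, 0.02. The mitochondrial mRNAs are the one list whose whole range lies above that line.

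Among the 487 transcripts with a mean of at least 500 counts, differences were small. KCNH8 is one of them through its Ribo-Zero Plus counts alone, and its undepleted counts are few. The middle 90% lay between -0.16 and 0.24, against -0.14 to 0.12 in the undepleted pair. KCNH8 and MT-ND1 were the only ones past 1.5-fold. The lowest, chosen after values were seen, was the histone chaperone subunit RBBP4, with 585 and 579 CPM undepleted and 446 CPM with Ribo-Zero Plus, a log2 ratio of -0.38 ± 0.14. SNRNP200, the helicase that unwinds the spliceosome's U4 and U6 RNAs, had -0.33 ± 0.14, and the initiation scaffold EIF4G1 had -0.33 ± 0.15. On the high side, mitochondrial mRNAs aside, the splicing helicase DHX15 had 0.34 ± 0.15 and the histone acetyltransferase HAT1 had 0.31 ± 0.14.

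Single-transcript values scattered more around the undepleted level than counting allows. A ratio of the mean squared deviation to the counting variance was computed in bins of the counts that 2 libraries share for a transcript, without mitochondrial mRNAs or the 2 transcripts over 4-fold higher. It lay between 3.15 and 3.38 for Ribo-Zero Plus against undepleted 1 and between 3.03 and 3.25 against undepleted 2, from the bin of 20 to 49 counts to that of 1000 or more. Between the undepleted libraries it lay between 1.02 and 1.14. The excess was thus of like size at all levels of coverage, and it was absent from the undepleted pair. With the undepleted libraries taken at counting variance, the Ribo-Zero Plus library alone had 6.90 times its counting variance. In the bin of 20 to 49 counts, 29.3% of transcripts differed 2-fold or more between Ribo-Zero Plus and undepleted 1, against 6.20% between the undepleted libraries. The cause of this scatter was not tested.

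**Figure D5:**
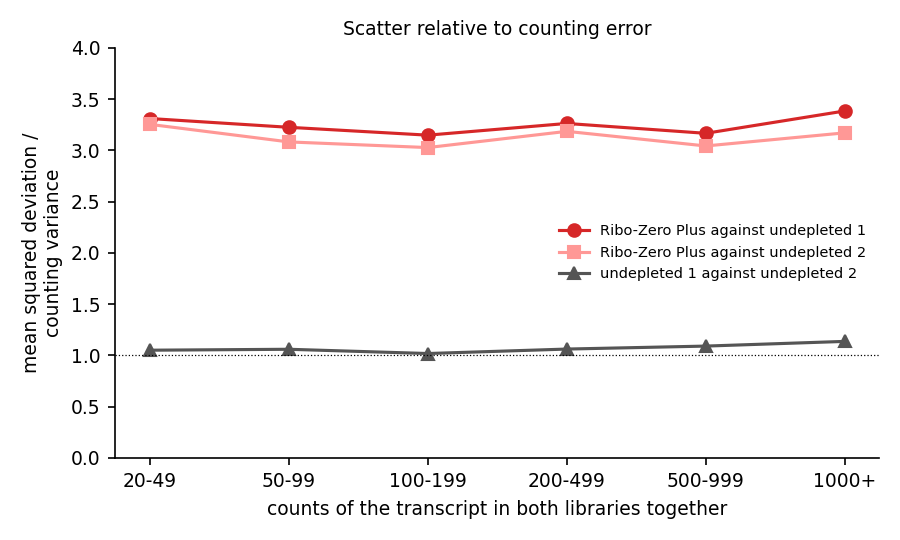
Mean squared deviation of counts from those expected by library size, divided by the variance that counting alone gives (vertical axis, from 0). Bins are of the counts of a transcript in both libraries together (horizontal axis). Lines show Ribo-Zero Plus against undepleted 1 (dark red), against undepleted 2 (light red) and the undepleted pair (grey). The dotted line at 1 marks counting error alone. Both red lines stay above 3 in every bin and the grey line stays at 1.14 or below.

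Rare transcripts were missing more often with Ribo-Zero Plus. It detected 10603 transcripts, against 11469 and 11261 in the shallower undepleted libraries. Thinned to 1031889 counts, the expected number was 10365 with Ribo-Zero Plus and 11371 in undepleted 1, and the FastSelect and riboPools libraries gave 11270 to 11434. Transcripts seen with a single count numbered 378 with Ribo-Zero Plus and 1023 and 934 undepleted. Of 8875 transcripts with no Ribo-Zero Plus count, 252 had more than 3 counts in undepleted 1. Of 8217 with none in undepleted 2, 56 did.

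UBXN2A, an adaptor with a ubiquitin-like domain, had the most undepleted counts, 20 and 15, of the transcripts with 0 counts with Ribo-Zero Plus. By counting error alone a count of 0 allows up to 3, and the wider scatter of this library allows more. HOMEZ, a homeobox and leucine zipper protein, had 27 and 17 counts undepleted and 1 with Ribo-Zero Plus, and the carnosine methyltransferase CARNMT1 had 21, 21 and 1. MGRN1, a ubiquitin ligase, had 35 and 41 counts undepleted and 7 with Ribo-Zero Plus. In the opposite direction SLC36A4, an amino acid transporter, had 5 and 1 counts undepleted and 34 with Ribo-Zero Plus, and the transcriptional repressor HEY1 had 3, 4 and 40. All of these genes were chosen after their values were seen. Those other than UBXN2A come from 4422 transcripts under the filter with at least 30 counts with Ribo-Zero Plus or 40 in both undepleted libraries together, of which 23 were 4-fold or more higher (0.520%) and 30 lower (0.678%). At a count of 0 the directions were unequal. Of 8875 transcripts with none with Ribo-Zero Plus, 480 had more than 3 counts in the pooled undepleted libraries. Of 7381 with none in either undepleted library, 103 had more than 3 with Ribo-Zero Plus. The 2 counts rest on different depths.

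The transcripts past 1.5-fold with Ribo-Zero Plus were then looked up in the NEBNext tables. Of 39 transcripts past 1.5-fold with Ribo-Zero Plus that the K562 NEBNext table covers with a mean of at least 20 counts, 15 lay on the same side there (38.5%). Over all 2080 transcripts compared, 1099 did (52.8%). In HEK293T it was 13 of 21 (61.9%), against 733 of 1379 (53.2%). This HEK293T excess depended on the processing. The share fell below 53.2% under total-count scaling and with no filter, and was close to it without undepleted 1. It stayed above 53.2% with DESeq2 size factors, with the filter at 20 counts and without undepleted 2. Transcripts of 1 library are not independent replicates, and most of the 44 higher ones had passed the filter through the Ribo-Zero Plus library, so these shares are a description. By direction, 9 of 13 higher and 6 of 26 lower transcripts lay on the same side in K562, and 8 of 8 and 5 of 13 did in HEK293T. Shares over all transcripts were not computed by direction. In K562 the median NEBNext log2 ratio was 0.27 for the higher and 0.39 for the lower transcripts, against 0.14 over all compared. In HEK293T these medians were 0.36, 0.08 and 0.02. Both directions had medians above 0, so these counts alone do not show that the kits moved the same transcripts. Across transcripts the Spearman rho between the log2 ratios of the kits was 0.04 in K562 and 0.05 in HEK293T.

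Correlations of the Ribo-Zero Plus difference with the composition of the coding sequence were weak. Across the 2506 transcripts, Spearman's rho with the log2 ratio was -0.04 for coding length, -0.01 for GC content, -0.02 for GC at the third codon position, -0.03 for purine content, -0.05 for the longest purine run and -0.01 for the share of acidic codons. Medians in 5 equal bins of transcripts ranked by GC content lay between 0.00 and 0.05. Among transcripts with a mean of at least 500 counts, rho was -0.14 for purine content, -0.13 for the longest purine run and 0.13 for C content. The mitochondrial mRNAs other than MT-ND6, all of them higher with Ribo-Zero Plus, were among these transcripts and were not left out. With no filter rho was 0.03 for purine content. These correlations describe transcripts of the same 3 libraries and are too weak to rank genes by.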

How the data were processed

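The values deposited by the authors are raw counts for the coding sequence of each of 19478 transcripts, in 4 tables, and RPM values that equal the count over the library total, rescaled, per the file headers and a check of the values, so only the counts were used. The submitters' processing notes name CASAVA 1.8, STAR and GRCh38. Filters, annotation and handling of duplicate or multiply matching reads are not given in the sources used here.

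Counts were scaled by TMM over the 3 libraries (edgeR 4.0.16, R 4.3.3) and analysed in Python 3.11.15 (numpy 2.4.6, pandas 2.3.3, scipy 1.17.1). Log2 ratios took a prior count of 0.5 and the mean log2 level of both undepleted libraries, and transcripts needed a mean of 100 counts. With 1 library against 2 no test was made. The scripts were tested on simulated data. The floor of 3 counts covers counting error only, and reads copied by PCR are not independent molecules. Errors of log2 ratios scale the Ribo-Zero Plus counting variance by 6.90. Depth is given in the report.

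Named transcripts are the 12 largest rises and falls with Ribo-Zero Plus outside both undepleted libraries, all globin and mitochondrial mRNAs, and the extremes of each of 21 gene lists. 1 transcript that met this rule is not reported here. The members and lists were chosen with earlier results of these data known. Positions and sequences come from GENCODE release 29 on GRCh38, where 97.3% of transcripts matched, and it may not be the authors' annotation.

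The alternatives tried were total-count scaling, DESeq2 1.42.0 size factors, filters at a mean of 20 or 500 counts or none, a prior count of 5, either undepleted library alone, pooled undepleted counts, coding sequences of at least 300 bases, single NEBNext size ranges and, chosen after seeing the data, a filter on the undepleted libraries alone and the spread without the 2 transcripts over 4-fold higher.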

Additional observations from a re-analysis of the deposited data

How the results depend on the processing

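No paired analysis was possible because the Ribo-Zero Plus library carries no replicate number and no result comes from a test. No value past a fold threshold changed sign. Under both other scalings, the prior count of 5 and pooled undepleted counts, each result was within the spread between replicates or, for counts, 1.5 times of its value, apart from the transcript not reported here. The filter on low counts moved the counts of transcripts most. At a mean of 20 counts, 628 were 1.5-fold higher, 576 lower, 149 2-fold higher and 167 lower. At 500 counts these were 2, 0, 1 and 0, and with no filter 2013, 3343, 1161 and 1745. With the filter on the undepleted libraries alone they were 8, 38, 0 and 3. Leaving out 1 undepleted library gave 6 to 7 transcripts 2-fold higher and 1 to 2 lower, with 7 and 2 when undepleted 1 was left out. The spread of log2 ratios beyond counting, 0.287 on average, was 0.434 at 20 counts and 0.511 with no filter, where low transcripts enter. Without the 2 transcripts over 4-fold higher it was 0.215 against undepleted 1 and 0.217 against undepleted 2. For the undepleted pair it was 0.042 without them and 0.036 with them. The median of iron-handling transcripts turned from 0.11 to -0.062 at 20 counts, that of tubulins -0.21 at 20 counts and with no filter, and that of zinc finger transcripts -0.22 with no filter. At 500 counts the 2 transcripts past 1.5-fold, KCNH8 and MT-ND1, were both on the same side with NEBNext in K562 (100%). KCNH8 passed that filter through its Ribo-Zero Plus counts alone, so no conclusion is drawn from this share. The HEK293T share with NEBNext fell below the main-setting share over all transcripts under total-count scaling and with no filter. Spearman's rho with sequence features stayed weak throughout. At 20 counts it was -0.018 for coding length, -0.023 for the longest purine run and -0.025 for the rRNA run on the same strand. At 500 counts it was -0.027 for coding length, 0.017 for GC at the third codon position, 0.13 for C, -0.080 for G, 0.053 for T, -0.14 for purines, -0.082 for acidic codons, -0.13 for the purine run, -0.022 and 0.050 for the rRNA run on the same and opposite strand. With no filter it was -0.0075 for coding length, -0.027 for C, 0.030 for purines, 0.028 for acidic codons, 0.0086 for the purine run, -0.011 and 0.0025 for the rRNA runs. With the filter on the undepleted libraries alone it was -0.063 for coding length and -0.038 for the opposite-strand rRNA run, which was -0.0060 for coding sequences of at least 300 bases. The cause of these shifts was not tested. A single Ribo-Zero Plus library limits every value, and at 20 to 49 counts 29.3% of its transcripts passed 2-fold against undepleted 1.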
